A study of Homo sapiens with 6 samples.

Results

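The 42 genes described here encode the core of the cell cycle engine: cyclins, cyclin-dependent kinases (CDKs), CDK inhibitors, the CDC25 phosphatases and the kinases that oppose them, the E2F and RB families, the polo-like and Aurora kinases, and the transcription factors MYBL2 and FOXM1. They were taken from a list by gene symbol, and all 42 were found among the 58243 genes of the deposited tables. Transcript levels came from mRNA sequencing of CAL27, an established line of squamous carcinoma cells from the human tongue. One group of 3 libraries was made from cells given the PBS vehicle for 48 h, and the other group of 3 from cells given 30 mM metformin, a biguanide drug, for the same time, both in high-glucose medium with serum. A single line, dose and time were measured, and the labels do not say whether the 3 libraries of a group came from separate cultures. The p-values are therefore set against library-to-library variation, and how much of it is technical is not known.

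Cyclins bind CDKs and switch them on at set points of the cycle. D-type cyclins with CDK4 and CDK6, and then E-type cyclins with CDK2, phosphorylate the RB family of pocket proteins, which releases E2F transcription factors to drive genes of S phase. Cyclin A and B with CDK1 carry the cell into mitosis, where the polo-like and Aurora kinases act. The genes of the late cycle are switched on through the MuvB complex, MYBL2 and FOXM1, and are held down outside it by MuvB with RB family proteins and E2F4, the DREAM complex. Squamous carcinomas of the head and neck often gain CCND1 or lose CDKN2A.

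With metformin, the A- and B-type cyclins, CDK1 and 5 of the 6 polo-like and Aurora kinases fell, as did the G1 cyclins CCND3, CCNE1 and CCNE2. The 7 genes that rose were CCND1, CCND2, CDK6, CDKN1B, CDKN2A, CDKN2B and E2F7, of which CDK6 lost its call under 7 of 16 alternative settings. CCNB1, the mitotic cyclin B1, fell 3.79-fold and PLK1, a mitotic kinase, fell 5.58-fold. CCND1, the G1 cyclin D1, rose 1.87-fold. CDKN2B, the CDK4 and CDK6 inhibitor p15, rose 7.96-fold, and E2F7, a repressor of the E2F family, rose 3.47-fold. Levels are in FPKM, fragments per kilobase of transcript scaled to library size, and a group's level is its mean ± SD (n = 3). Folds are ratios of group means. A log2 change is the difference of the group means of log2(FPKM + 1), metformin less PBS, and for genes of low level it is smaller than the fold would give. Each was tested two-sided with limma, with Benjamini-Hochberg adjustment over the 13437 genes whose mean reached 1 FPKM, and a gene was called at an adjusted p below 0.05.

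Of the 42 genes, 41 reached a mean of 1 FPKM and were tested. By these calls 26 fell, 7 rose and 8 were not called. Among all tested genes, 25.2% were called lower and 31.0% higher, 56.2% in either direction. That balance depended on scaling, with 3645 genes higher and 3811 lower under quantile scaling and 3744 and 3750 under median-of-ratios scaling. A log2 change of -1 or lower was called for 13 of the 41, against 4.74% of all tested genes, and one of 1 or higher for 2, against 6.51%. For 37 of the 41 every value of 1 group lay beyond every value of the other, against 64.4% of all tested genes. The median log2 change of the 41 was -0.54, and that of all tested genes was 0.06. In RNA from a whole culture, fewer cells in a phase of the cycle and less RNA per cell cannot be told apart.

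**Figure D1:**
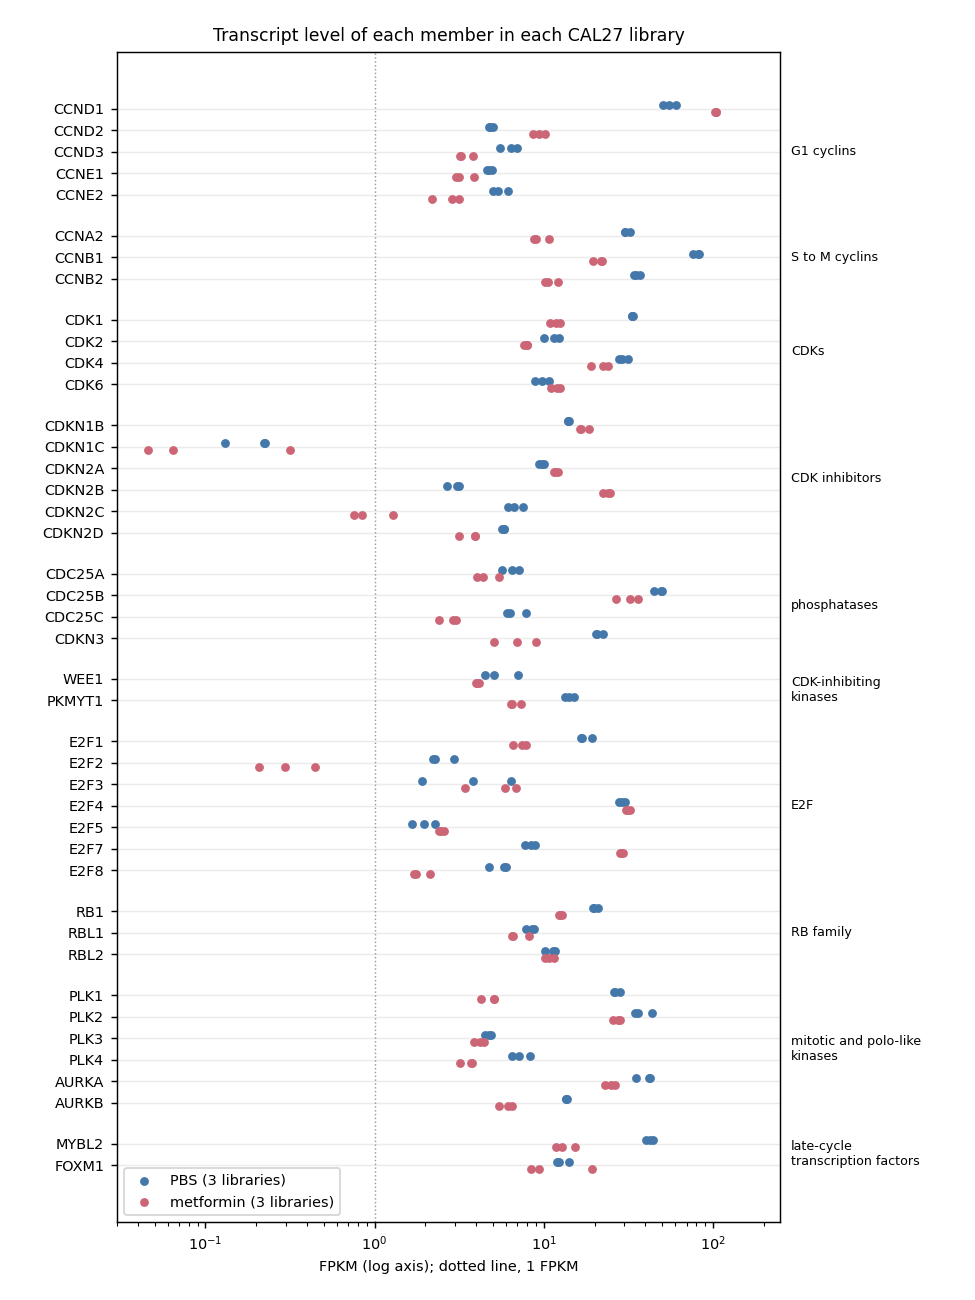
Level of each of the 42 genes in FPKM on a log axis, with 1 point per library, blue for PBS and red for metformin, grouped by role. The dotted line marks 1 FPKM. The points of the S to M cyclins, PLK1 and MYBL2 with metformin lie to the left of all PBS points, and those of CCND1, CDKN2B and E2F7 lie to the right.

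The spacing of the lowest values put the depth at 7810000 to 8820000 fragments per library, so that 1 FPKM stands for about 7.81 to 8.82 fragments per kilobase. The ranges of the groups overlapped. All 10 markers of squamous epithelium that were looked up, among them TP63 and the keratin KRT5, reached a mean of 1 FPKM. Of 6 fibroblast markers 1 did, of 6 leukocyte markers 2, and of 5 endothelial markers 1. The fibroblast marker DCN and the endothelial marker KDR were listed at 0 in every library. The summed level of the squamous markers was 1305 to 1386 FPKM with PBS and 756 to 779 with metformin, and its members went both ways. KRT5 had means of 355 and 52.4 and KRT14 of 246 and 12.9, whereas DSG3 (9.01 and 25.1), CDH1 and EPCAM were called higher. The summed endothelial level, 5.93 to 6.87 with PBS and 2.01 to 2.32 with metformin, was nearly all CDH5, at 6.17 and 2.03. The leukocyte sum, 5.69 to 6.74 and 4.28 to 6.19, joined CD14, at 3.71 and 0.942, with CD68, at 2.15 and 3.33. The fibroblast sum was 1.54 to 2.34 and 2.49 to 2.74. Any part of these differences in the results below was not tested.

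Promoter sequence is shown for 6 of the genes, so that genes with large falls (CCNB2, PLK1, E2F1, E2F2) and large rises (E2F7, CDKN2B) can be set side by side. Not all genes with large falls are shown. RefSeq windows (GRCh38.p14) of 250 bases before to 50 bases after a start were found for 31 of the 42 genes, 49 windows in all. No window was matched for AURKA, CCND1, CCND2, CCNE2, CDK2, CDKN1C, E2F5, E2F8, FOXM1, PKMYT1 and WEE1. The elements searched, on both strands, were the CHR, the element read by the MuvB complex, as TTTGAA or TTCGAA, the CCAAT box of the factor NF-Y as CCAAT, and the E2F site as TTTCCCGC, TTTCGCGC, TTTGCCGC or TTTGGCGC. Each gene shown that fell had a CHR or E2F match in its window. The genes CCNA2, CCNB1, CDKN2C, AURKB and MYBL2, which also fell, had neither match and are not shown. No match overlaps another in the stretches shown. Positions count back from the RefSeq start, with -1 the base before it. That start lies inside the GENCODE 29 gene for all of these but E2F2, by a wide margin for PLK1. Each stretch is therefore the 120 bases before the RefSeq start or before the first base annotated as UTR upstream of it, 5′ to 3′ on the strand of the gene, with matches in capitals.
CCNB2, chr15:59104958-59105077, plus strand: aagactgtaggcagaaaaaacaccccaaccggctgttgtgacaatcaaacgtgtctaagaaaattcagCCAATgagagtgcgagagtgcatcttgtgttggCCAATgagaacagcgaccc
PLK1, chr16:23678702-23678821, plus strand: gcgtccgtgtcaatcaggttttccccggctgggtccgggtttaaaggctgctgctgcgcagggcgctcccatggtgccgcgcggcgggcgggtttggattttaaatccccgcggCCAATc
E2F1, chr20:33686405-33686524, minus strand: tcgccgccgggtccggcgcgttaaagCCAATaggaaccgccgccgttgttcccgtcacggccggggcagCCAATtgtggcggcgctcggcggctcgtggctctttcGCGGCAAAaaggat
E2F2, chr1:23531234-23531353, minus strand: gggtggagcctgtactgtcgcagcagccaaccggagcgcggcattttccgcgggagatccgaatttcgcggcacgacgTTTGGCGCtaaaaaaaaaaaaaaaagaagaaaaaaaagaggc
E2F7, chr12:77065581-77065700, minus strand: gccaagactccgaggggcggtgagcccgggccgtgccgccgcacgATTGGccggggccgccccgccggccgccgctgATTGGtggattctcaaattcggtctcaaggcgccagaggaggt
CDKN2B, chr9:22009364-22009483, minus strand: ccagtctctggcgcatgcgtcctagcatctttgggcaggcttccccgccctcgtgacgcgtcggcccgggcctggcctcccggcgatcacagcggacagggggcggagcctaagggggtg

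The stretch of CCNB2 covers -188 to -69 and holds CCAAT boxes at -120 to -116 and -87 to -83. That of PLK1 covers -187 to -68 and holds a CCAAT box at -73 to -69. Both genes also had a CHR at -29 to -24, in bases not shown. The stretch of E2F1, -139 to -20, holds CCAAT boxes at -113 to -109 and -70 to -66 and an E2F site on the opposite strand at -33 to -26, with a second E2F site at -20 to -13 not shown. E2F2, shown from -120 to -1, had an E2F site at -42 to -35. The stretch of E2F7, -131 to -12, holds CCAAT boxes on the opposite strand at -86 to -82 and -54 to -50. That of CDKN2B, -178 to -59, held no match.

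Over whole windows, a CHR was in 9 of the 35 windows of genes that fell (25.7%), 0 of the 7 of genes that rose, 2 of the 7 of genes not called (28.6%) and 16.4% of all 35116 RefSeq windows. A CCAAT box was in 20 of 35 (57.1%), 2 of 7, 2 of 7 and 34.6%. An E2F site was in 5 of 35 (14.3%), 0 of 7, 2 of 7 (28.6%) and 3.31%. A CHR together with a CCAAT box was in 8 windows of genes that fell (22.9%), which belong to CCNB2, CDC25B, CDC25C, CDK1, CDKN3 and PLK1, in 0 of 7 and 1 of 7 of the other groups, the latter of E2F3, and in 6.38% of all windows. Among genes called with a log2 change of -1 or lower, CCNA2, CCNB1, CDKN2C, AURKB and MYBL2 had windows with no match to the CHR or E2F letters searched. Other spellings of these elements were not searched, so a window without a match can still hold one. Windows of 1 gene can overlap one another, these are matches of letters and not measured binding, and no test was made.

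The G1 cyclins moved in both directions, 2 higher and 3 lower of 5 tested, beside 31.0% higher and 25.2% lower among all tested genes. CCND1 (ENSG00000110092.3, chromosome 11, 69641087 to 69654474 on the plus strand of GRCh38) had 55.2, 50.9 and 60.7 FPKM with PBS and 103, 104 and 104 with metformin. Every metformin value was above every PBS value. The mean went from 55.6 ± 4.91 to 104 ± 0.818 (log2 change 0.89, SE 0.07, adjusted p = 7.17e-05 by limma). CCND2, cyclin D2, had 4.77, 5.03 and 4.81 with PBS and 10.2, 8.62 and 9.40 with metformin. The level of CCND2 stayed far below that of CCND1 in both groups, and it rose 1.93-fold (log2 change 0.83, SE 0.08, adjusted p = 0.000173). The third D-type cyclin, CCND3, had 5.51, 6.45 and 6.93 with PBS and 3.21, 3.26 and 3.84 with metformin. It fell 1.83-fold (log2 change -0.72, SE 0.10, adjusted p = 0.00115), so the D-type cyclins parted, with CCND1 and CCND2 up and CCND3 down.

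The E-type cyclins, which start S phase with CDK2, both fell from low levels. CCNE1 had 4.93, 4.76 and 4.61 FPKM with PBS and 3.02, 3.86 and 3.16 with metformin, 1.42-fold lower (log2 change -0.41, SE 0.09, adjusted p = 0.00852). CCNE2 had 5.37, 5.04 and 6.18 with PBS and 3.14, 2.87 and 2.19 with metformin, 2.02-fold lower (log2 change -0.81, SE 0.12, adjusted p = 0.00147). The groups did not overlap for either gene. CCNE2 shares 37.0% of its exon bases with INTS8 on the opposite strand, itself at 8.18 FPKM with PBS and 10.0 after metformin. Reads of overlapping genes cannot be told apart unless counting used strand, and the strand setting is not known here. CCND1 shares 10.3% of its exon bases with the opposite-strand gene LTO1, at 4.04 and 10.2 FPKM. The part of these neighbours in the values of CCNE2 and CCND1 was not tested.

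The 3 cyclins of S phase to mitosis were all called lower, beside 25.2% of all tested genes. CCNB1 (ENSG00000134057.14, chromosome 5, 69167010 to 69178245 on the plus strand) is cyclin B1, the partner of CDK1 at mitotic entry. It had the highest PBS level of the 42 genes, with 77.0, 81.9 and 83.1 FPKM, against 22.0, 19.7 and 22.1 with metformin. The mean fell 3.79-fold from 80.7 ± 3.27 to 21.3 ± 1.33 (log2 change -1.88, SE 0.06, adjusted p = 3.33e-06). CCNB2, the second B-type cyclin, had 35.3, 37.0 and 34.5 with PBS and 12.1, 10.2 and 10.6 with metformin. It fell 3.24-fold (log2 change -1.61, SE 0.07, adjusted p = 9.24e-06). CCNA2, cyclin A2 of S and G2 phase, had 30.3, 30.3 and 32.6 with PBS and 10.8, 8.98 and 8.74 with metformin, a fall of 3.27-fold (log2 change -1.62, SE 0.09, adjusted p = 1.79e-05). In each of the 3 genes the lowest PBS value was well over the highest metformin value. A CCAAT box was matched for all 3 genes, and a CHR for CCNB2 alone.

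Among the CDKs of the list, CDK1 fell most. CDK1, the mitotic CDK, had 33.5, 33.8 and 33.1 FPKM with PBS and 11.9, 12.5 and 10.9 with metformin, a fall of 2.85-fold from 33.5 ± 0.319 to 11.7 ± 0.836 (log2 change -1.44, SE 0.06, adjusted p = 8.69e-06). CDK2, the S-phase CDK, had 10.1, 12.3 and 11.6 with PBS and 8.03, 7.97 and 7.70 with metformin, 1.43-fold lower (log2 change -0.46, SE 0.08, adjusted p = 0.00280). The falls of CDK2 and CDK4 were smaller, and the groups of each were still apart. CDK4, a partner of the D-type cyclins, had 31.6, 27.8 and 29.0 with PBS and 22.3, 24.1 and 19.1 with metformin, 1.35-fold lower (log2 change -0.42, SE 0.09, adjusted p = 0.00877).

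CDK6, the other D-cyclin kinase, had 9.79, 8.85 and 10.7 FPKM with PBS and 12.5, 11.1 and 12.1 with metformin. The gap between the groups was small, and its rise of 1.21-fold passed the threshold narrowly (log2 change 0.26, SE 0.09, adjusted p = 0.0384). The call was lost without PBS replicate 1 (adjusted p = 0.0846), PBS replicate 2 (0.0997), metformin replicate 1 (0.113) or metformin replicate 3 (0.0957), and under median-of-ratios scaling (0.0824), quantile scaling (0.0588) and no level filter (0.0683). CDK4 shares 43.2% of its exon bases with TSPAN31, itself at 5.32 FPKM with PBS and 4.28 after metformin, and CDK2 shares 14.5% with AC025162.1, at 22.4 and 16.6. Both neighbours lie on the opposite strand, and their part was not tested.

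The CDK inhibitors held the largest rise among the 41 tested genes. Proteins of the INK4 family bind CDK4 and CDK6 and keep D-type cyclins off them. CDKN2B (ENSG00000147883.10, chromosome 9, 22002903 to 22009363 on the minus strand) encodes p15. It had 3.17, 2.69 and 3.06 FPKM with PBS and 24.7, 22.4 and 24.0 with metformin, far above every PBS value. The mean rose 7.96-fold from 2.97 ± 0.252 to 23.7 ± 1.19 (log2 change 2.63, SE 0.07, adjusted p = 2.02e-06). CDKN2A (ENSG00000147889.17, 21967753 to 21995301 on the same strand), which lies close to it, encodes p16 and, from another first exon, ARF, which are counted here as 1 gene. It had 10.1, 9.75 and 9.42 with PBS and 12.1, 11.6 and 11.5 with metformin, a rise of 1.20-fold (log2 change 0.24, SE 0.06, adjusted p = 0.0108).

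The other INK4 genes fell. CDKN2C (ENSG00000123080.10, chromosome 1, 50960745 to 50974633 on the plus strand), which encodes p18, had 6.70, 6.16 and 7.58 FPKM with PBS and 0.838, 0.753 and 1.29 with metformin. The mean fell 7.09-fold from 6.81 ± 0.719 to 0.961 ± 0.289 (log2 change -2.00, SE 0.13, adjusted p = 3.78e-05). The metformin values of CDKN2C lie near 1 FPKM, so the size of its fall is uncertain. Its log2 change was -2.73 with a pseudocount of 0.1 and -0.99 with 5. CDKN2D, which encodes p19, had 5.80, 5.68 and 5.82 with PBS and 3.94, 3.15 and 3.91 with metformin, 1.57-fold lower (log2 change -0.54, SE 0.09, adjusted p = 0.00218). With PBS the order of the INK4 levels was CDKN2A, CDKN2C, CDKN2D and CDKN2B, and with metformin it was CDKN2B, CDKN2A, CDKN2D and CDKN2C, with no overlap between neighbours in either order.

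Of the CIP/KIP inhibitors, which bind cyclin-CDK2 complexes, CDKN1B encodes p27 and had 13.9, 14.1 and 13.9 FPKM with PBS and 18.6, 16.4 and 16.6 with metformin. It rose 1.23-fold (log2 change 0.28, SE 0.06, adjusted p = 0.00947). CDKN1C, p57, was the only gene of the 42 under the level filter, with 0.224, 0.222 and 0.131 with PBS and 0.314, 0.0458 and 0.0646 with metformin. Its groups overlapped, and it was not tested. CDKN1A, p21, which is not among the 42 but belongs to this family, had 4.32, 5.02 and 3.29 with PBS and 27.0, 24.6 and 23.7 with metformin, a rise of 5.96-fold (log2 change 2.34, adjusted p = 2.08e-05).

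**Figure D2:**
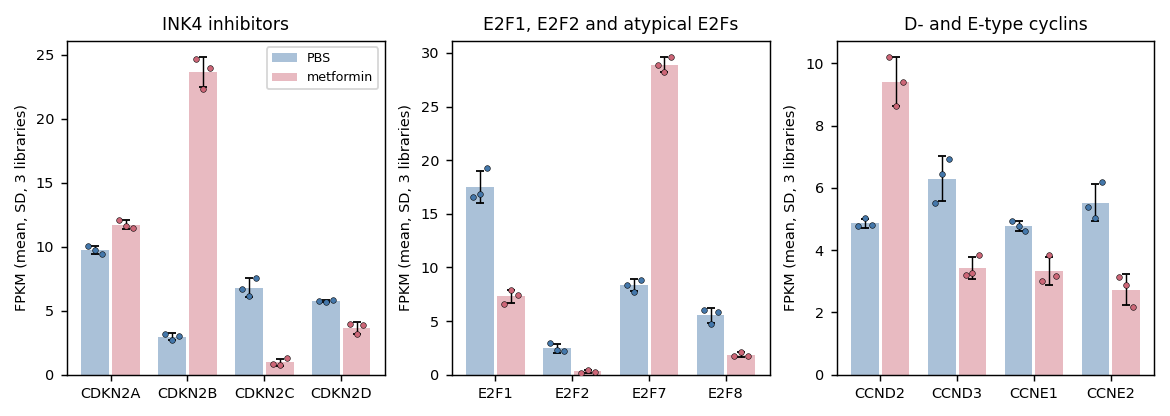
Levels in FPKM of the INK4 inhibitors, of 4 E2F genes and of D- and E-type cyclins on linear axes from 0, with bars for the mean, whiskers for the SD and 1 point per library (3 PBS in blue, 3 metformin in red). CDKN2B, E2F7 and CCND2 rose while CDKN2C, E2F1, E2F2, E2F8 and CCND3 fell, and the points of the groups do not overlap for any gene shown.

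All 4 phosphatases of the list were called lower, beside 25.2% of all tested genes. The CDC25 enzymes remove the inhibitory phosphates of CDKs. CDC25C, which acts at mitotic entry, had 6.37, 6.10 and 7.91 FPKM with PBS and 3.02, 2.39 and 2.91 with metformin, a fall of 2.45-fold (log2 change -1.04, SE 0.12, adjusted p = 0.000368). CDC25B, the most abundant of the 3, had 50.1, 49.5 and 45.2 with PBS and 26.7, 32.2 and 36.2 with metformin, 1.52-fold lower (log2 change -0.60, SE 0.11, adjusted p = 0.00357). The groups of CDC25B and CDC25C were clearly apart, whereas those of CDC25A nearly touched. CDC25A, which acts from G1 on, had 5.69, 6.51 and 7.16 with PBS and 5.43, 4.36 and 4.06 with metformin (log2 change -0.41, SE 0.12, adjusted p = 0.0233). Its call was lost under 6 alternatives, among them without PBS replicate 2 (adjusted p = 0.0619), PBS replicate 3 (0.0714), metformin replicate 2 (0.0686) or metformin replicate 3 (0.0709), and with no level filter (0.0531). CDKN3, a phosphatase that acts on CDKs, had 20.5, 22.5 and 20.6 with PBS and 8.98, 6.93 and 5.08 with metformin. It fell 3.03-fold (log2 change -1.50, SE 0.17, adjusted p = 0.000409), and its metformin libraries varied more than its PBS libraries.

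Of the 2 kinases that add those inhibitory phosphates, 1 was called lower, beside 25.2% of all tested genes. PKMYT1, the membrane-bound MYT1 kinase, had 15.1, 13.3 and 14.2 FPKM with PBS and 6.46, 7.34 and 6.41 with metformin, a fall of 2.11-fold (log2 change -0.97, SE 0.08, adjusted p = 8.84e-05). PKMYT1 shares 24.5% of its exon bases with PAQR4, at 13.4 FPKM with PBS and 4.79 with metformin, and 7.15% with KREMEN2, at 8.90 and 1.21, both on the opposite strand. The part of PAQR4 and KREMEN2 was not tested. WEE1, its nuclear counterpart, had 5.12, 4.47 and 7.05 with PBS and 3.99, 4.12 and 4.06 with metformin, and was not called (log2 change -0.35, SE 0.14, adjusted p = 0.0717). The groups did not overlap, and PBS replicate 3 was high. Without PBS replicate 2, WEE1 was called lower (log2 change -0.47, adjusted p = 0.0275), and without PBS replicate 3 its change was smaller (-0.19, adjusted p = 0.115). It was also called lower under median-of-ratios (0.0476) and quantile scaling (0.0374).

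Of the 7 genes of the E2F family, 1 was called higher, 3 lower and 3 were not called, beside 31.0% higher and 25.2% lower among all tested genes. E2F1 and E2F2 are activators of S-phase genes. E2F1 (ENSG00000101412.12, chromosome 20, 33675683 to 33686404 on the minus strand), whose window holds a pair of E2F sites, had 16.5, 16.8 and 19.2 FPKM with PBS and 6.61, 7.86 and 7.43 with metformin. It fell 2.40-fold from 17.5 ± 1.49 to 7.30 ± 0.632 (log2 change -1.16, SE 0.09, adjusted p = 7.21e-05). E2F2, which also holds an E2F site, had 2.96, 2.29 and 2.20 with PBS and 0.208, 0.447 and 0.295 with metformin. It fell 7.84-fold in the means, from a low level (log2 change -1.40, SE 0.13, adjusted p = 0.000178). The metformin values of E2F2 rest on few fragments, and their ratio to PBS is correspondingly uncertain.

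The atypical E2Fs, E2F7 and E2F8, bind DNA without a DP partner and repress E2F targets, and they went opposite ways. E2F7 (ENSG00000165891.15, chromosome 12, 77021247 to 77065580 on the minus strand) had 8.41, 7.73 and 8.84 FPKM with PBS and 28.9, 28.2 and 29.6 with metformin. The mean rose 3.47-fold from 8.33 ± 0.564 to 28.9 ± 0.723 (log2 change 1.68, SE 0.06, adjusted p = 5.32e-06). E2F8 had 6.03, 4.72 and 5.85 with PBS and 1.71, 2.13 and 1.75 with metformin, a fall of 2.97-fold (log2 change -1.19, SE 0.11, adjusted p = 0.000176). Each gene's groups were far apart. E2F7 was above E2F8 in every library, by a wider margin with metformin.

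The remaining E2Fs were not called. E2F4, the main E2F of DREAM, was the most abundant of the family with PBS, at 30.3, 28.1 and 28.9 FPKM, and had 31.3, 32.5 and 30.7 with metformin (log2 change 0.11, 95% interval -0.02 to 0.24, adjusted p = 0.121). Under quantile scaling it was called higher (log2 change 0.18, adjusted p = 0.0261). E2F5 had 1.67, 2.29 and 1.96 with PBS and 2.49, 2.41 and 2.58 with metformin (log2 change 0.24, adjusted p = 0.0874), and was called without PBS replicate 2 (0.31, adjusted p = 0.0443). E2F5 shares 16.3% of its exon bases with the opposite-strand gene C8orf59, at 11.2 FPKM with PBS and 12.0 with metformin, whose part was not tested. E2F3, the third activator, varied widely within each group, with 1.91, 3.81 and 6.39 with PBS and 3.43, 5.91 and 6.88 with metformin (log2 change 0.41, 95% interval -0.46 to 1.27, adjusted p = 0.375). Single libraries moved the change of E2F3, to 0.06 without PBS replicate 1, 0.73 without PBS replicate 3, 0.65 without metformin replicate 1 and 0.24 without metformin replicate 3.

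Of the 3 genes of the RB family, RB1 alone was called, beside 56.2% of all tested genes called in either direction. RB1, which restrains the activator E2Fs, had 19.7, 19.7 and 20.9 FPKM with PBS and 12.8, 12.6 and 12.4 with metformin, a fall of 1.60-fold (log2 change -0.63, SE 0.05, adjusted p = 0.000115). RBL1, p107, had 8.73, 7.83 and 8.52 with PBS and 6.52, 8.22 and 6.55 with metformin (log2 change -0.21, adjusted p = 0.107). Metformin replicate 2 lay inside the PBS range, and without it RBL1 was called lower (-0.31, adjusted p = 0.0201). RBL2, p130, the pocket protein of resting cells, had 11.7, 10.2 and 11.3 with PBS and 11.5, 10.7 and 10.2 with metformin (log2 change -0.03, 95% interval -0.21 to 0.15, adjusted p = 0.756), and its groups overlapped.

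Of the 6 polo-like and Aurora kinases, 5 fell and 0 rose, beside 25.2% lower and 31.0% higher among all tested genes. PLK1 (ENSG00000166851.14, chromosome 16, 23677656 to 23690367 on the plus strand), which drives mitotic entry and spindle assembly, had 26.4, 26.2 and 28.3 FPKM with PBS and 4.28, 5.12 and 5.11 with metformin. The mean fell 5.58-fold from 27.0 ± 1.14 to 4.83 ± 0.481 (log2 change -2.27, SE 0.08, adjusted p = 3.93e-06). No tested gene of the 41 had a lower log2 change at a pseudocount of 1, but with 0.1 CDKN2C (-2.73) and E2F2 (-2.66) fell below PLK1 (-2.46), as they do by fold. PLK4, the kinase of centriole duplication, had 8.30, 7.19 and 6.52 with PBS and 3.78, 3.22 and 3.71 with metformin, a fall of 2.06-fold (log2 change -0.86, SE 0.10, adjusted p = 0.000464). PLK2 and PLK3 belong to the same family by sequence but are stress-responsive genes. PLK2 had 43.8, 36.0 and 34.9 with PBS and 28.2, 27.7 and 25.7 with metformin, 1.41-fold lower (log2 change -0.47, SE 0.09, adjusted p = 0.00500). PLK3 had 4.75, 4.50 and 4.89 with PBS and 3.88, 4.43 and 4.20 with metformin and was not called (log2 change -0.14, 95% interval -0.32 to 0.03, adjusted p = 0.144), except under quantile scaling (-0.22, adjusted p = 0.0413).

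The Aurora kinases fell by different amounts. AURKB, the kinase of the chromosomal passenger complex, had 13.5, 13.5 and 13.7 FPKM with PBS and 6.47, 5.45 and 6.15 with metformin, 2.25-fold lower (log2 change -1.05, SE 0.07, adjusted p = 4.88e-05). AURKA, the spindle pole kinase, had 42.5, 35.4 and 41.8 with PBS and 26.5, 23.1 and 24.9 with metformin, 1.60-fold lower (log2 change -0.66, SE 0.09, adjusted p = 0.000849). The groups of each gene were apart in every library.

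Of the transcription factors that activate late-cycle genes, MYBL2 was called lower, and the call of FOXM1 turned on 1 library. MYBL2, B-MYB, had 42.6, 40.1 and 44.4 FPKM with PBS and 11.8, 15.3 and 12.9 with metformin, a fall of 3.18-fold from 42.4 ± 2.18 to 13.3 ± 1.81 (log2 change -1.60, SE 0.10, adjusted p = 2.99e-05). FOXM1 had 14.0, 12.3 and 12.0 with PBS and 19.3, 8.43 and 9.45 with metformin, and was not called (log2 change -0.13, SE 0.28, adjusted p = 0.715). Metformin replicate 1 was above every PBS library and the other two metformin libraries were below them all. Without metformin replicate 1, FOXM1 was called lower (log2 change -0.47, adjusted p = 0.0102). FOXM1 shares 15.9% of its exon bases with ITFG2 on the opposite strand, itself at 4.33 FPKM with PBS and 3.30 after metformin, and the part of ITFG2 was not tested.

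**Figure D3:**
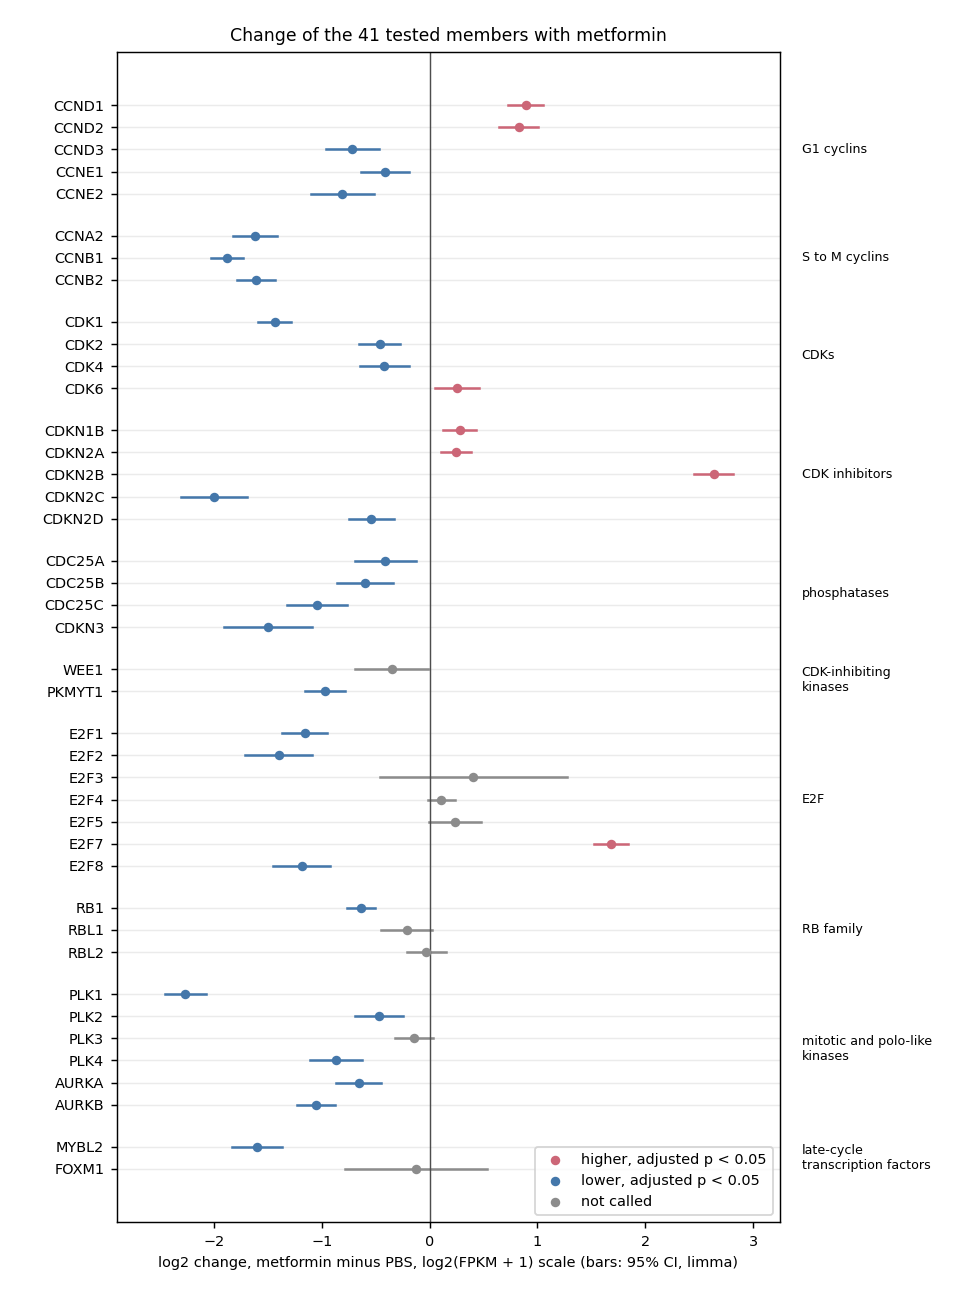
Log2 change of the 41 tested genes, metformin less PBS in log2(FPKM + 1), with 95% intervals from limma, grouped by role and coloured by call (red higher, blue lower, grey not called). The S to M cyclins and PLK1 lie at -1.61 or below, CDKN2B at 2.63 and E2F7 at 1.68, and the wide intervals are those of E2F3 and FOXM1.

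Ratios of related genes within a library do not depend on how the library was scaled, so 16 pairs were compared in this way. The ratios of the groups did not overlap for 14 pairs. The share among pairs of other genes was not computed, and 64.4% of all tested genes did not overlap when taken singly. For each of these an exact two-sided permutation test over the 6 libraries gave p = 0.1, the smallest that 3 against 3 allows (0.114 after Benjamini-Hochberg adjustment over the 16 pairs), so the design cannot reach the threshold. The level of E2F7 was 0.509, 0.460 and 0.460 times that of E2F1 with PBS and 4.36, 3.59 and 3.99 times with metformin. The order of these E2Fs was thus turned around, and the difference in the log2 ratio was 3.06. The ratio of E2F1 to E2F4 went from 0.545, 0.598 and 0.665 to 0.212, 0.241 and 0.242, a difference in the log2 ratio of -1.38.

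Among the G1 genes, CCND1 was 10.0, 7.90 and 8.76 times as high as CCND3 with PBS and 32.1, 32.1 and 27.1 times with metformin. CDKN1B was 1.38, 1.15 and 1.20 times as high as CDK2 with PBS and 2.31, 2.06 and 2.15 times with metformin. The balance of CDK4 to CDK6 moved from 3.23, 3.14 and 2.70 to 1.78, 2.18 and 1.58. CDKN2C went from 1.16, 1.08 and 1.30 times CDKN2D to 0.213, 0.239 and 0.330 times, the largest downward difference of the 16 pairs (-2.20 in the log2 ratio). The metformin values of CDKN2C behind that ratio lie near 1 FPKM. In each of these pairs the shift was larger than the spread within the groups.

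Among the mitotic genes, PLK1 was at 0.604, 0.730 and 0.811 of the level of PLK2 with PBS and at 0.152, 0.185 and 0.199 with metformin. CDK1 was 3.32, 2.75 and 2.86 times CDK2 with PBS and 1.48, 1.57 and 1.41 times with metformin. AURKA was 3.15, 2.63 and 3.05 times AURKB with PBS and 4.10, 4.25 and 4.05 times with metformin. CCNB1 and CCNB2 kept closest to each other of the pairs that did not overlap, with a ratio of 2.18, 2.21 and 2.41 with PBS and 1.82, 1.92 and 2.07 with metformin. The pairs that overlapped were CDC25A with CDC25B (exact permutation p = 0.7) and RBL1 with RBL2 (exact permutation p = 0.3).

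**Figure D4:**
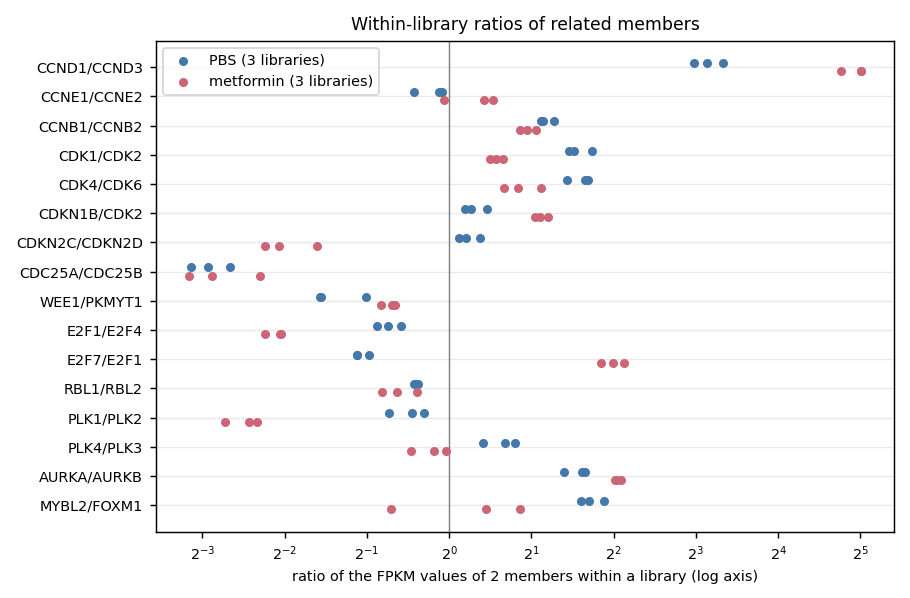
Ratio of the FPKM values of related genes within each library, on a log axis, with 1 point per library (3 PBS in blue, 3 metformin in red). The points of E2F7/E2F1 pass from below 1 with PBS to between 3.59 and 4.36 with metformin, and those of CDC25A/CDC25B and RBL1/RBL2 overlap.

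Other genes of the same machinery were read from a list of 46, of which 42 were tested. Of these 28 were called lower, 4 higher and 10 not called, with a median log2 change of -0.59, beside 25.2% lower and 31.0% higher among all tested genes. Among 9 tested cyclin and CDK partners, 6 fell and 2 rose, led by the rise of CDKN1A above and by CCNF, cyclin F, which fell 2.76-fold from 7.69 ± 0.105 to 2.79 ± 0.328 (log2 change -1.20, adjusted p = 5.08e-05). Of 9 ubiquitin ligase genes, 6 fell and 0 rose. CDC20, the mitotic activator of the anaphase-promoting complex, fell 3.31-fold from 129 ± 1.84 to 39.1 ± 2.22 (log2 change -1.70, adjusted p = 2.6e-06), and UBE2C, its ubiquitin-conjugating enzyme, fell 2.95-fold from 97.7 ± 7.13 to 33.1 ± 1.78 (log2 change -1.53, adjusted p = 9.7e-06).

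All 10 tested genes of mitotic kinases and their partners fell, beside 25.2% called lower among all tested genes. TPX2, the activator of AURKA, fell 3.18-fold from 91.7 ± 3.47 to 28.9 ± 1.53, and TTK, a spindle checkpoint kinase, fell 3.10-fold from 12.5 ± 1.99 to 4.03 ± 0.235. Of 9 E2F partners and MuvB subunits, 2 rose, 2 fell and 5 were not called. Among all tested genes, 31.0% were higher and 25.2% lower. The median log2 change of the 9 was 0.06, the same as that of all tested genes. LIN52, a MuvB subunit, rose 1.57-fold from 3.67 ± 0.381 to 5.75 ± 0.766 (log2 change 0.53, adjusted p = 0.00645), and RBBP4, a histone-binding subunit of MuvB, fell 1.33-fold (log2 change -0.38, adjusted p = 0.00183). Of 3 checkpoint kinases 2 fell, CHEK1 1.78-fold and CHEK2 1.61-fold. The proliferation markers MKI67 and PCNA fell 3.48-fold and 2.45-fold, from 47.0 ± 5.17 to 13.5 ± 1.54 and from 188 ± 19.2 to 76.9 ± 5.77.

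**Figure D5:**
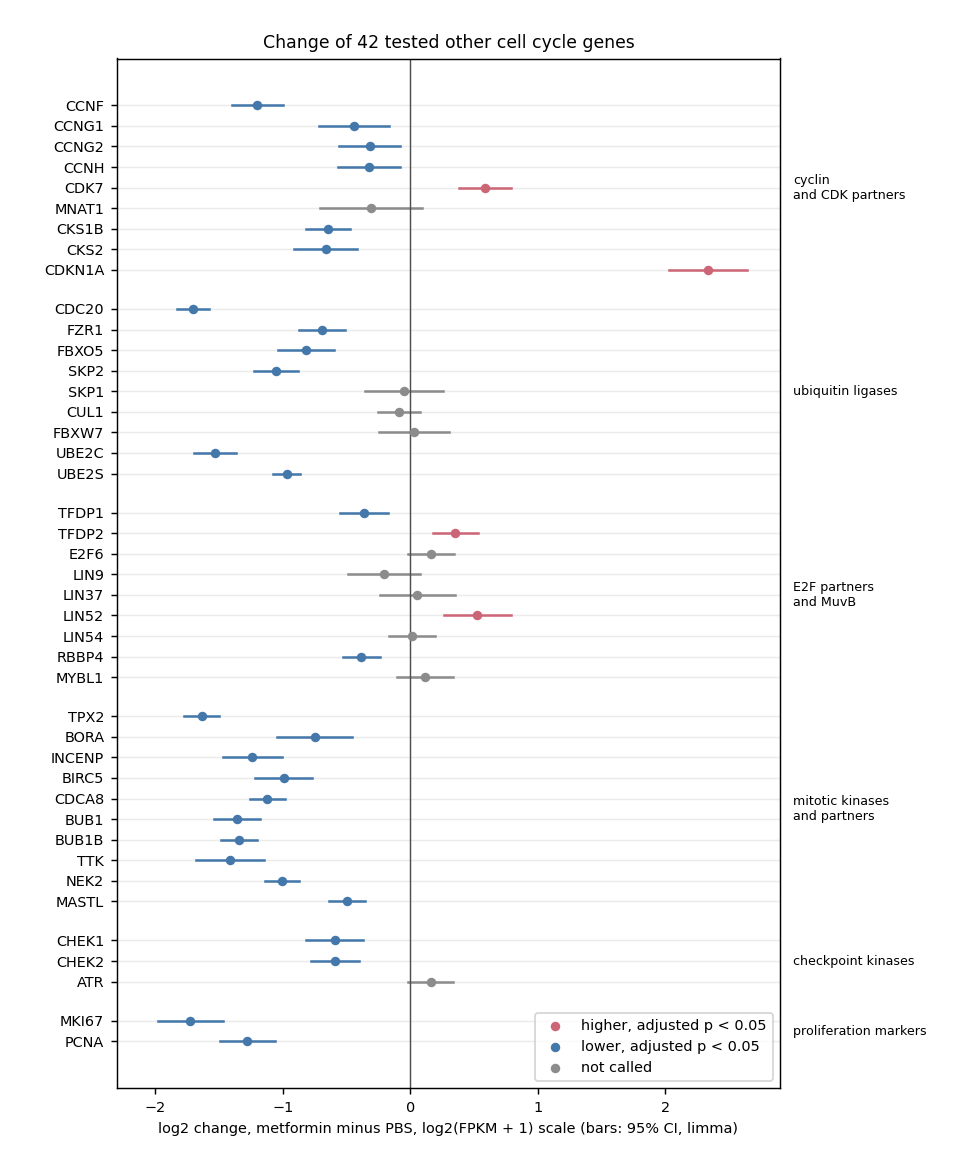
Log2 change of 42 tested genes of the same machinery outside the 42 described first, metformin less PBS in log2(FPKM + 1), with 95% intervals from limma and colours by call (red higher, blue lower, grey not called). All 10 mitotic kinase and partner genes lie below 0, the E2F partners and MuvB subunits have a median of 0.06, and CDKN1A lies at 2.34.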

How the data were processed

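Each of the 6 libraries had 1 file of FPKM values per gene, which the authors deposited, per the file headers. Per the labels' protocols, mRNA libraries were made with a VAHTS kit, and reads were 150 bp. The genome build was GRCh38, per the submitters' processing notes. The sources used here give no aligner, quantifier, strand setting or annotation. Symbols and coordinates came from GENCODE 29, matched on the identifier without version, which named 57980 of 58243 genes. All 37 mitochondrial genes were listed at 0, so a listed 0 is not read as absence.

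Genes whose mean reached 1 FPKM were fitted as log2(FPKM + 1) with limma 3.58.1 in R 4.3.3 (eBayes with trend, group as the only term). The fit was tested on simulated data. Depth was estimated from single-transcript genes, as the most frequent depth at which a low value stands for 1 fragment. Exon overlaps with other genes of at least 1 FPKM used BEDTools 2.31.1, and the rest Python 3.11.15, pandas 2.3.3, NumPy 2.4.6 and SciPy 1.17.1. Every one of the 42 genes is named. Of the other cell cycle genes, the text names the 2 largest called changes of each sublist, MKI67, PCNA and CDKN1A. The genes of that list that were too low to test, the markers and the neighbours named were chosen after their values were seen. The genes and lists were chosen with earlier results of these data known. The alternatives were other pseudocounts, level filters, scalings and variance settings, a replicate block, and each library left out.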

Additional observations from a re-analysis of the deposited data

How the results depend on the processing

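Of the 41 tested genes, 31 kept their direction and call under every one of the 16 alternatives in which they could be tested. The exceptions were CDK6, CDC25A, WEE1, PLK3, E2F3, E2F4, E2F5, RBL1, RBL2 and FOXM1. With each library left out in turn, RBL2 ranged from -0.082 to 0.010 and was above 0 without PBS replicate 1 (0.0071, adjusted p = 0.951) or metformin replicate 3 (0.010, adjusted p = 0.930). FOXM1 ranged from -0.47 to 0.081 and was above 0 without metformin replicate 2 (0.081, adjusted p = 0.823) or metformin replicate 3 (0.0068, adjusted p = 0.987). Over the alternatives, between 18 and 28 of the genes were called lower and between 6 and 8 higher, the 18 where a mean of at least 5 FPKM left 29 of them to test. With that filter, 2401 of all tested genes were called higher, against 4169, because 7388 genes were tested in place of 13437. Scaling by median-of-ratios or quantiles moved the median of all genes by -0.05 and -0.07, and 50.0% and 48.9% of calls were then higher, against 55.2%. Replicate numbers did not pair the libraries: the deviations of same-numbered libraries correlated at -0.000355, 0.0304 and -0.0105. With a replicate block 8 of the 41 genes were called higher and 25 lower. E2F3 then passed (0.41, adjusted p = 0.0493) and CDC25A did not (-0.41, adjusted p = 0.0627), and of all tested genes 3940 were higher and 3199 lower. Depth limits the lowest values most, among them E2F2 and CDKN2C with metformin.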

Other observations

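The group means of some genes that share exon bases with the 42 genes are given here with no test, chosen after their values were seen. Their reads and those of the 42 genes may be mixed. LTO1, on the strand opposite CCND1, had a mean of 4.04 FPKM with PBS and 10.2 with metformin. KREMEN2 and PAQR4, opposite PKMYT1, had 8.90 and 13.4 FPKM with PBS and 1.21 and 4.79 with metformin. FAM53C, which shares 8.78% of the exon bases of CDC25C, had 8.84 and 13.2. EXOSC9, which shares 9.08% of those of CCNA2, had 6.07 and 4.31. AKTIP, which shares 8.33% of those of RBL2, had 3.41 and 4.27. Among cell cycle genes at very low levels, CCNA1 and CCNB3, germline cyclins, had means of 0.152 and 0.0250 FPKM with PBS and 0.139 and 0.0218 with metformin. AURKC, the third Aurora kinase, had 0.238 and 0.126, and PLK5 was listed at 0 in every library.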
